A study of Mus musculus with 8 samples.

Results

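The 10 genes described here encode the Ran GTPase cycle and the transport receptors it drives: Rcc1, Ran, Rangap1, Ranbp1, Ranbp2, Xpo1, Kpnb1, Cse1l, Ipo9 and Tnpo1. They were taken by name from 19671 protein-coding genes with a strand, with earlier results of these data known. Rcc1 and Ipo9 were chosen by their log2 folds over input and over the Zmat3-/- (knockout) immunoprecipitate (IP) in these libraries, so their values are a description and no test was run on them. Every called peak on the strand of a gene, with its midpoint inside the annotated span, was counted. The lists over input held 250, 303 and 271 such peaks for controls 1 to 3, and 301 for the knockout. These stood among 129323, 153768, 122284 and 167648 called peaks in all. Against the Zmat3-/- (knockout) immunoprecipitate, the corresponding numbers were 250, 303 and 272.

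The series profiled RNA bound by Zmat3, a zinc finger RNA-binding protein, in mouse embryonic fibroblasts by UV crosslinking and immunoprecipitation with an anti-Zmat3 antibody. The 3 control lines had the genotype Cas9+;E1A;HrasG12V and carried the guides sgNegative control EV, sgNegative control SPA and sgNegative control ACOCA, here controls 1, 2 and 3. The knockout was 1 line of genotype Zmat3-/-;E1A;HrasG12V with no guide. All 4 lines thus shared the retroviral E1A and oncogenic Hras. The controls also carried Cas9 and a guide lentivirus, so the loss of Zmat3 and the other differences between the lines cannot be told apart. Of 8 fibroblast markers, 3 or 4 were called per IP, with Vim, Fn1 and Pdgfrb in all 4 and a summed 101, 105 and 82 peaks in controls 1 to 3 against 102 for the knockout. Pdgfrb alone had 16, 12 and 10 against 2. Col1a1, Col1a2, Thy1 and S100a4 had 0 called peaks, and Col3a1 had 1, in control 2. The 4 epithelial markers summed to 9, 10 and 12 peaks against 19. Epcam had 9, 5 and 11 against 10, Krt18 0, 5 and 0 against 8, and Cdh1 0, 0 and 1 against 1. Krt8 had 0 in all 4 IPs. Neither endothelial marker (Pecam1, Cdh5) was called, and of 2 leukocyte markers Ptprc had 0 and Cd68 1 to 3 per IP. The part of these differences in the results below was not tested.

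Ran is a small GTPase that gives nuclear transport its direction. Rcc1, bound to chromatin, loads Ran with GTP in the nucleus, and Rangap1 with its helpers Ranbp1 and Ranbp2 brings about GTP hydrolysis on the cytoplasmic side. Importins release their cargo when they meet Ran-GTP, whereas exportins bind their cargo together with it. In mitosis the same gradient of Ran-GTP around chromosomes guides spindle assembly.

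Each peak came with the authors' log2 fold and −log10 p of an IP against its comparator, either input or the Zmat3-/- IP. A peak was called enriched where both its log2 fold and its −log10 p reached 3. All 3 lists over the Zmat3-/- IP use the same knockout library, so they are not independent of each other. Called peaks that overlap in any of the 4 IPs were joined into sites, and where a library had several peaks at a site, the one of highest log2 fold gave its value. The values over input and over the Zmat3-/- IP can then come from different peaks of a site, as stated where it matters. Whether a site lies in an exon or an intron was not analysed here. Read counts are not part of the lists, so depth is unknown. The values came in steps: of the 250 peaks of the 10 genes over input in control 1, 244 had a pair of log2 fold and −log10 p that another peak of that list also had.

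Sequence was read from the RefSeq promoter table (GRCm38.p6), which reaches a short way into the transcript. Promoter windows were listed for 9 of the 10 genes, all but Cse1l. Only sites at a transcript's beginning could be read from it, and the 2 stretches below are shown because, of the bases printed, those of Ipo9 lay under a called peak in the controls but not in the knockout, and those of Ranbp1 lay under one in all 4 IPs. Both start sites as a whole had a knockout peak and lay above the Zmat3-/- IP in all 3 controls. Both lie on the minus strand and are written 5′ to 3′ in the sense of the transcript, with no letter marked. The Ipo9 stretch (chr1:135430442-135430463, from base 37 to base 58 after the annotated start) was covered by a called peak in all 3 controls and holds 2 T in 22 bases. The Ranbp1 stretch (chr16:18248645-18248674, from base 21 to base 50) was reached by a called peak in all 4 IPs and holds 0 T in 30 bases.
Ipo9: ggccgcggggctggcgggctga
Ranbp1: gacgggcgggagcgccggcgccagacgcgg
Both are rich in G and C, at 86.4% and 86.7%.

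Among the 10 genes, the Zmat3-/- IP had 0 enriched peaks, where 0.316% of all its called peaks were enriched. Over input, 2 of 250 member peaks were enriched in control 1 (Ipo9 and Rcc1), 9 of 303 in control 2 and 1 of 271 in control 3 (Rcc1). Over all called peaks the shares were 1.02%, 1.05% and 0.494%, so the members' 0.80% and 0.369% in controls 1 and 3 lay below those lists' own shares, and the 2.97% in control 2 lay above. The 9 peaks of control 2 lay in Cse1l, Rangap1, Rcc1, Tnpo1 and Xpo1. Over the Zmat3-/- IP, 4 of 250, 11 of 303 and 4 of 272 member peaks were enriched, or 1.60%, 3.63% and 1.47%, against 0.621%, 1.09% and 0.648% of all peaks. Rcc1 and Ipo9, picked for high folds, are inside these shares, so shares above those of all peaks are no evidence about the set. Over the Zmat3-/- IP, Ipo9 contributed 2, 2 and 1 enriched peaks in controls 1 to 3, and Rcc1 contributed 1, 2 and 1. Over input, no gene but these contributed any in controls 1 and 3. Control 2 held most of the enriched member peaks on both comparisons. Among all called peaks it also had the most enriched ones, with 1622 over input against 1319 in control 1 and 604 in control 3. Over the Zmat3-/- IP these numbers were 1681 against 803 and 793. Without control 2 the member count over input went from 12 to 3 and the member count over the Zmat3-/- IP from 19 to 8.

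A region is called reproducible where peaks enriched over input and, in the same control, over the Zmat3-/- IP overlapped in at least 2 of the 3 controls. Rcc1 was the 1 gene of the 10 with such a region. In the background, 2.31% of the 8387 genes called at least once in each control had one. When enrichment over the Zmat3-/- IP alone was asked for, 5 of the 10 genes had a region in at least 2 controls (Rcc1, Rangap1, Xpo1, Ipo9 and Tnpo1), against 5.72% of the same background. Rcc1 and Ipo9 were picked for their folds, and all 10 genes were chosen with earlier results of these data known. The count is therefore a description and adds nothing as evidence about the set. Exact permutation of 1 knockout against 3 control libraries cannot give a p below 0.25, so no such test was made.

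**Figure D1:**
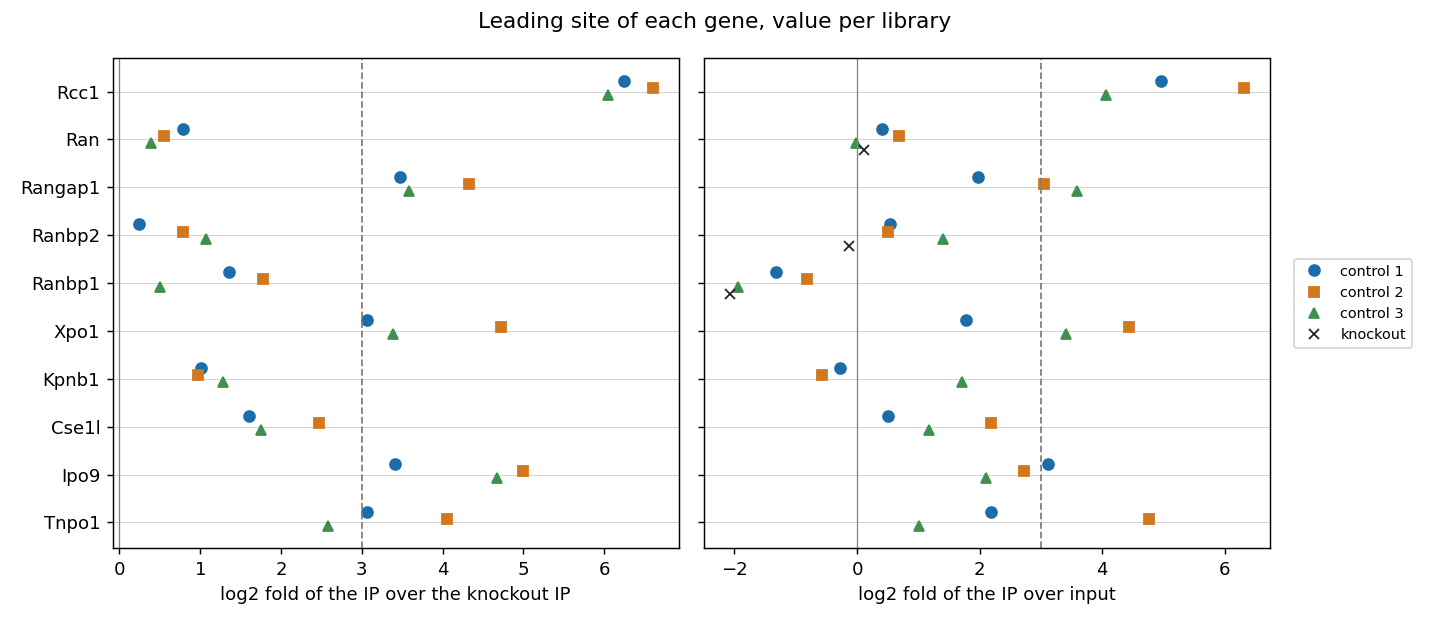
Leading site of each of the 10 genes, defined among sites called in all 3 controls by the greatest minimum of the log2 folds against the knockout. The left panel shows the log2 fold over the Zmat3-/- IP and the right panel the log2 fold over input; each point is 1 library, the dashed line marks the threshold of 3, and a cross is drawn only where a knockout peak was called. Rcc1 lies above 3 in every control in both panels, while Rangap1, Xpo1 and Ipo9 lie above 3 in every control on the left and have at least 1 control below 3 on the right.

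Rcc1, the exchange factor, had very few called peaks, and 1 site was enriched in all 3 controls on both comparisons. Its span (chromosome 4, 132331919 to 132345750, minus strand) held 1, 2 and 2 called peaks for controls 1 to 3 and 2 for the knockout, or 0.120 control peaks per kb against 0.537 to 1.76 in the other 9 genes. The leading site, chr4:132334923-132335009, is 87 nt long and lies 10784 nt from the annotated start of the 13832 nt gene. Over the Zmat3-/- IP its log2 fold was 6.24 in control 1, 6.60 in control 2 and 6.04 in control 3. Over input it was 4.96, 6.32 and 4.06. All 6 values passed the threshold with room, with −log10 p from 8.36 (control 3 over input) to 25.8 (control 2 over the Zmat3-/- IP). The means of the 3 controls were 6.30 ± 0.28 and 5.11 ± 1.14 (SD, n = 3), in that order. The controls spread more over input than over the shared knockout library. No knockout peak was called at the site. The sources used here do not say how the deposited ratio treats a place with few or no comparator reads. The fold over the Zmat3-/- IP here, and at the other sites without a knockout peak, may thus rest on a filled-in comparator value. Input reads at these sites are unknown too, so the folds over input may carry the same limit. The SD also leaves out the spread of the knockout, which has 1 library.

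A weaker Rcc1 site lay close by, at chr4:132334295-132334349. In control 2 it was enriched, with 3.26 over input and 4.55 over the Zmat3-/- IP. In control 3 the folds were 2.18 and 3.17, but with −log10 p of 0.60 and 1.72, so neither comparison passed. Control 1 had no called peak there. The 2 knockout peaks of Rcc1 lay elsewhere, at 132332541 to 132332593 (log2 fold over input 1.11) and at 132345204 to 132345230 (0.23). Measured against the other called Rcc1 peaks of the same list, the leading site stood 2.47 higher over the Zmat3-/- IP, but this rests on the 1 neighbouring site in controls 2 and 3.

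**Figure D2:**
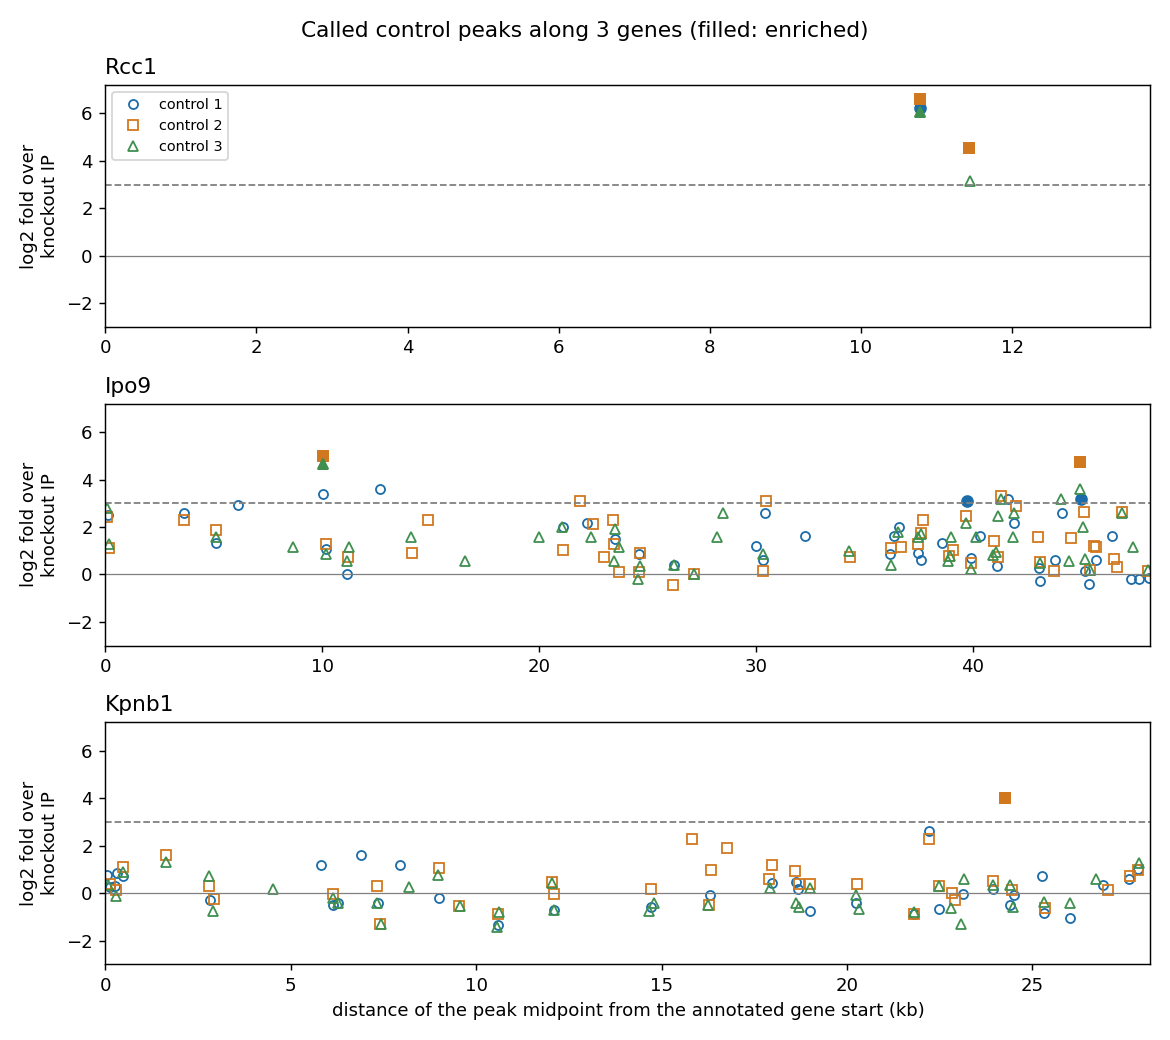
Called control peaks along Rcc1, Ipo9 and Kpnb1, by distance of the midpoint from the annotated start (kb, horizontal) and log2 fold over the Zmat3-/- IP (vertical). Each point is 1 peak of 1 control, filled points are enriched, and the dashed line marks 3. Rcc1 has 5 control peaks at 2 sites, Ipo9 has peaks along its whole length that mostly lie above 0 with enriched ones at 3 sites, and the Kpnb1 peaks lie on both sides of 0. All called peaks of the 3 lists, over every gene, had medians of 1.18, 0.88 and 1.00.

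Ran itself, the GTPase, showed no site apart from the rest. It had 7, 8 and 7 called peaks for controls 1 to 3 and 9 for the knockout over a span of 4167 nt (chromosome 5, 129020156 to 129024322, plus strand), the densest of the 10 genes with 1.76 control peaks per kb. Over all protein-coding genes, 68.0% of the sites called in all 3 controls were called in the knockout as well, and in Ran all 4 were. At the leading one, chr5:129020435-129020565, the log2 fold over the Zmat3-/- IP was 0.78, 0.55 and 0.39, and over input 0.40, 0.68 and −0.01, with the knockout at 0.11. The knockout value thus lay inside the range of the controls over input. No Ran peak was enriched in any of the 7 lists.

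Rangap1, the GTPase activator, had a site above the Zmat3-/- IP in all 3 controls that fell short of a reproducible region. At chr15:81722045-81722219 the log2 fold over the Zmat3-/- IP was 3.47, 4.33 and 3.58, with a mean of 3.79 ± 0.46 (SD, n = 3). Over input it was 1.97, 3.05 and 3.60. Control 3 had a pair of peaks here: the one with 3.60 over input had a −log10 p of 2.95 and a log2 fold of 3.00 over the Zmat3-/- IP, just short of the threshold, while the one with 3.58 over the Zmat3-/- IP had 1.01 over input. Control 2 alone qualified on both comparisons. No knockout peak was called there. Control 2 had another Rangap1 peak enriched on both comparisons at 81710594 to 81710690 (3.02 over input and 3.30 over the Zmat3-/- IP), in a place without called peaks in the other 3 IPs. A further peak of control 2 enriched over input, in the site at 81724394 to 81724481, also read 3.02, but over the Zmat3-/- IP this site gave 0.18, 0.71 and −0.19, values on both sides of 0.

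Ranbp1, which helps Rangap1 free Ran-GTP from transport receptors, had sites of low fold that were shared with the knockout. Over all protein-coding genes, 68.0% of the sites called in the 3 controls were called in the knockout too, and in Ranbp1 all 5 were. The leading one, chr16:18240720-18240845, overlaps the snoRNA gene Gm25777 inside Ranbp1, so its reads cannot be assigned to Ranbp1 mRNA. Its log2 fold over the Zmat3-/- IP was 1.35, 1.78 and 0.50, with −log10 p of 16.6, 12.2 and 2.11. Over input it was −1.32, −0.82 and −1.94, and −2.07 in the knockout. All 4 IPs thus lay below their input there. In control 2 the values over the 2 comparators belong to different peaks of this site. At the Ranbp1 start, the site that includes the sequence shown above (chr16:18248542-18248697) had 0.67, 0.39 and 1.53 over the Zmat3-/- IP and 0.51, −0.11 and 0.86 over input, with the knockout at −0.88. In controls 1 and 3 the higher values over the 2 comparators again belong to different peaks.

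Ranbp2, the nuclear pore protein Nup358 that binds Ran-GTP and anchors Rangap1 modified with SUMO, had 32, 44 and 23 called peaks for controls 1 to 3 and 46 for the knockout, and none was enriched in any list. Of its 14 sites called in all 3 controls, 14 were called in the knockout, against 68.0% of such sites in all protein-coding genes. Over all genes, 60.8% of such sites lay above the Zmat3-/- IP in every control, and in Ranbp2 1 of the 14 did. That site, chr10:58478365-58478446, had 0.24, 0.78 and 1.07 over the Zmat3-/- IP and 0.54, 0.50 and 1.40 over input, with the knockout at −0.13 over input. The highest single value was 3.30 over the Zmat3-/- IP at 58492893 to 58492949 in control 2, with a −log10 p of 1.87.

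Among the transport receptors, the exportin gene Xpo1, whose protein carries cargo with a leucine-rich export signal, had 1 site that stood out. At chr11:23276243-23276390 the log2 fold over the Zmat3-/- IP was 3.06, 4.72 and 3.39, a mean of 3.72 ± 0.88 (SD, n = 3). Over input it was 1.77, 4.44 and 3.40. The knockout had no called peak at this site although it had 47 in the gene. Control 2 was enriched on both comparisons and control 3 over the Zmat3-/- IP alone (−log10 p 3.89, against 2.48 over input). Control 1 reached a −log10 p of 2.91 over the Zmat3-/- IP. The other 6 Xpo1 sites called in all 3 controls had means over the Zmat3-/- IP from −0.86 to 0.53.

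Kpnb1, importin β, and Cse1l, the exportin that returns importin α to the cytoplasm, had no site enriched in more than 1 control. Kpnb1 had 22 sites called in all 3 controls, the most of the 10 genes. Of these, 21 (95.5%) were called in the knockout, against 68.0% of such sites in all protein-coding genes. The median of the control means over the Zmat3-/- IP was 0.09 at the Kpnb1 sites. In every control, 5 of the 22 (22.7%) lay above 0, against 60.8% in all genes. Its single enriched peak, in control 2 at 97163618 to 97163670, had 3.998 over the Zmat3-/- IP and 2.72 over input and no counterpart in the other IPs. In Cse1l the leading site, chr2:166939249-166939329, had 1.60, 2.47 and 1.75 over the Zmat3-/- IP and 0.51, 2.19 and 1.18 over input, without a knockout peak. A separate Cse1l peak of control 2 lay at 166939523 to 166939591 and had 3.92 over input but 2.20 over the Zmat3-/- IP.

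Ipo9, an importin known for carrying histones H2A and H2B and actin, was above the Zmat3-/- IP at most of its sites and close to input at many of them. Called peaks in general also lay above the Zmat3-/- IP, with medians of 1.18, 0.88 and 1.00 in controls 1 to 3. The medians of the Ipo9 peaks were 1.34, 1.16 and 1.23, and the difference was not tested. It had 41, 49 and 50 called peaks for controls 1 to 3 and 34 for the knockout over its span (chromosome 1, 135382312 to 135430499, minus strand). At its leading site, chr1:135420386-135420531, the log2 fold over the Zmat3-/- IP was 3.41, 5.00 and 4.67 and over input 3.12, 2.72 and 2.10. The means were 4.36 ± 0.84 and 2.65 ± 0.52 (SD, n = 3). Controls 2 and 3 were enriched over the Zmat3-/- IP, and none of the 3 was enriched over input. A site near the other end of the gene, chr1:135385469-135385608, had 3.18, 4.76 and 3.58 over the Zmat3-/- IP and 2.16, 2.15 and 1.60 over input. Neither site had a called knockout peak. At chr1:135390720-135390836, control 1 alone was enriched on both comparisons, with 3.40 over input and 3.10 over the Zmat3-/- IP, where the other two controls reached 2.47 and 2.17.

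At the Ipo9 start the comparators gave different pictures. The site at chr1:135430265-135430464, which includes the Ipo9 sequence shown above, had 2.52, 2.41 and 2.81 over the Zmat3-/- IP, with −log10 p of 6.50, 2.36 and 3.21. Over input it had 0.04, 0.02 and −1.12. In control 2 the peak with 2.41 over the Zmat3-/- IP had −0.61 over input. The knockout peak called at this site had −2.63 over its input and ended at 135430371, short of the printed stretch. Controls 2 and 3 also had separate peaks in this site with 1.10 and 1.28 over the Zmat3-/- IP. In control 3 the peak over the printed stretch, at 135430379 to 135430464, was the one with 2.81. All 3 controls thus stood above the Zmat3-/- IP without standing above their own input. In a bulk lysate, more copies of the RNA in the control lines and more recovery of each copy cannot be told apart from the ratio of 2 IPs. Of the 21 Ipo9 sites called in all 3 controls, 18 (85.7%) lay above 0 over the Zmat3-/- IP in every control and 7 (33.3%) lay above 1. Over all such sites in protein-coding genes the shares were 60.8% and 20.7%. Ipo9 was picked for its folds, so these counts are a description and no evidence. The median of the control means at the Ipo9 sites was 1.14 over the Zmat3-/- IP and −0.27 over input, against 0.65 and 0.30 in all genes.

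Tnpo1, the importin for hnRNP proteins, had a pair of sites where control 2 stood highest. At chr13:98870340-98870468 the log2 fold over the Zmat3-/- IP was 2.18, 5.20 and 4.58, and over input 1.90, 3.92 and 3.60. The control 1 peak there spans 98870395 to 98870422 and had a −log10 p of 0.51 over the Zmat3-/- IP, far from the 9.20 of control 2 and the 5.34 of control 3. At chr13:98875768-98875866 the values were 3.06, 4.05 and 2.58 over the Zmat3-/- IP and 2.19, 4.77 and 1.01 over input, where control 2 alone passed. No knockout peak was called at either site. Of 13 Tnpo1 sites called in all 3 controls, 11 (84.6%) lay above 0 over the Zmat3-/- IP in every control and 5 (38.5%) lay above 1. Over all such sites in protein-coding genes the shares were 60.8% and 20.7%. The median of the control means was 1.00 at the Tnpo1 sites. Counting every called Tnpo1 peak, the medians over the Zmat3-/- IP were 1.18, 0.88 and 1.12, near the 1.18, 0.88 and 1.00 of all called peaks. The Tnpo1 span also overlaps the pseudogene Rpl27a-ps4 and Gm52051.

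**Figure D3:**
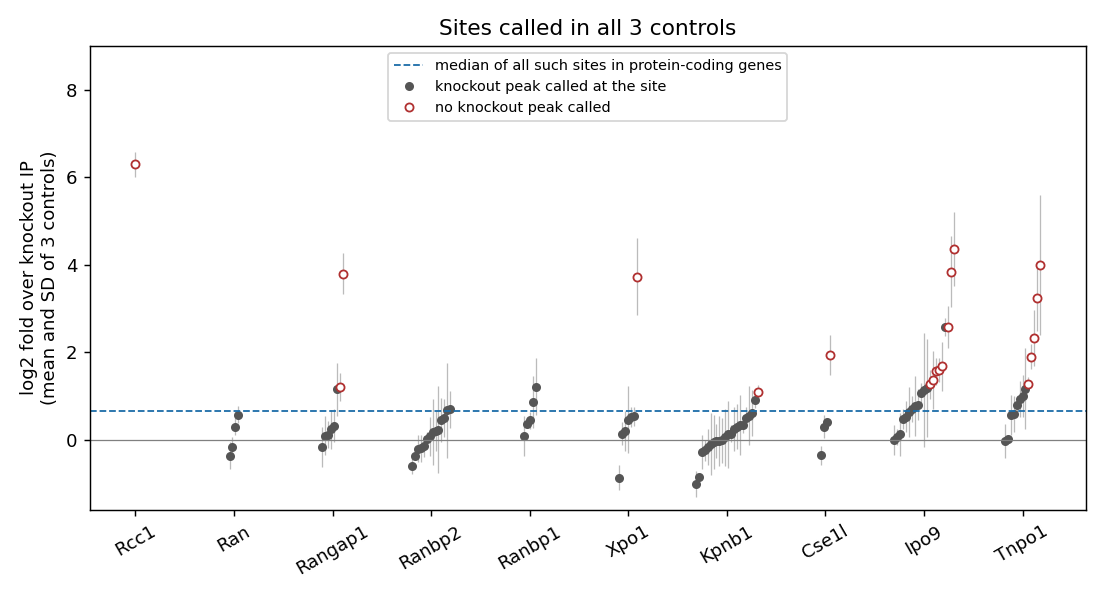
Mean log2 fold over the Zmat3-/- IP of each site called in all 3 controls, by gene; bars are the SD over the 3 controls and open red points mark sites without a called knockout peak. The dashed line is the median of all such sites in protein-coding genes, 0.65. Kpnb1, Ranbp2 and Ran lie around 0, most Ipo9 and Tnpo1 sites lie above the dashed line, and the Rcc1 site is the highest at 6.30.

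Over the 10 genes together, 99 sites were called in all 3 controls, and 51 of them (51.5%) lay above the Zmat3-/- IP in every control, against 60.8% of the 23070 such sites in all protein-coding genes. A log2 fold above 1 in every control was found at 17 of the 99 (17.2%), against 20.7% in all genes. Both shares of the 10 genes lay below those of all genes. The pooled shares weigh genes by their number of sites and do not describe each gene. Above 0 in every control were 5 of 22 sites in Kpnb1 and 1 of 14 in Ranbp2, but 18 of 21 in Ipo9 and 11 of 13 in Tnpo1. Ran, Rangap1 and Xpo1 also lay below 60.8%, and Rcc1, Ranbp1 and Cse1l above it. The median of the control means was 0.45 in the 10 genes and 0.65 over all such sites. Of the 17 sites above 1, 7 were in Ipo9, 5 in Tnpo1, 2 in Rangap1 and 1 each in Rcc1, Xpo1 and Cse1l. A knockout peak was called at 80 of the 99 sites (80.8%), against 68.0% in all genes. The 19 sites without one included 8 of Ipo9, 5 of Tnpo1, 2 of Rangap1 and 0 of Ran, Ranbp1 and Ranbp2. A site without a called knockout peak is favoured to have a high ratio over the Zmat3-/- IP, so these features are not independent. At 11 of the 80 sites called in all 4 IPs, the knockout lay on the other side of input from all 3 controls. This share of 13.8% is near the 14.3% of the 15680 such sites in all protein-coding genes.

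At the leading sites, the controls' means over the Zmat3-/- IP were 6.30 ± 0.28 for Rcc1 and 4.36 ± 0.84 for Ipo9 (SD, n = 3), both of which were picked for such values. The means of Rangap1 (3.79 ± 0.46), Xpo1 (3.72 ± 0.88) and Tnpo1 (3.23 ± 0.75) lay within their spread of each other, and their order depends on the choice of site. The leading site was set by the lowest of the 3 controls, and the other Tnpo1 site described above has the higher mean, 3.99 ± 1.59. Cse1l had 1.94 ± 0.46, Ranbp1 1.21 ± 0.65, Kpnb1 1.09 ± 0.17, Ranbp2 0.70 ± 0.42 and Ran 0.57 ± 0.20 (SD, n = 3), and neighbours among the last 4 did not differ beyond the larger of their SDs. The leading site is the best of 1 to 22 sites of a gene, so genes with more sites had more chances of a high value.

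Of 26 other nuclear transport genes, 23 had called peaks in all 3 controls and 1, Xpo6, had a reproducible region. In the background, 2.31% of the 8387 genes had one, and 1 gene of 23 is no result about the list. Xpo6 encodes the exportin for actin bound to profilin. At chr7:126115983-126116110 it had 4.01, 4.72 and 4.49 over the Zmat3-/- IP and 3.51, 5.17 and 5.09 over input, with means of 4.41 ± 0.36 and 4.59 ± 0.94 (SD, n = 3). No knockout peak was called there. Xpot, the tRNA exportin, and Tnpo2, a close relative of Tnpo1, each had 1 peak that qualified in control 2 alone. Tnpo2 had 1.60, 3.20 and 2.90 over the Zmat3-/- IP. Of the 80 sites of this list called in all 3 controls, 57 (71.2%) lay above 0 over the Zmat3-/- IP in every control. The share was 60.8% over all such sites in protein-coding genes, and the difference was not tested.

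The 6 genes for spindle factors governed by Ran-GTP had called peaks in all 3 controls and 0 reproducible regions. With 2.31% of the background genes having one, 0 of 6 is no result about this list. Tpx2, which Ran-GTP releases from importins to build the spindle, had 2 peaks that qualified in control 2. The stronger, chr2:152876422-152876524, had 3.18, 4.88 and 4.28 over the Zmat3-/- IP and 2.90, 3.02 and 1.71 over input, with no knockout peak. Rae1, an mRNA export factor with a role at the spindle, had 3.18, 3.47 and 3.04 over the Zmat3-/- IP but 0.90, 3.19 and 1.47 over input. Both sites had a log2 fold above 3 over the Zmat3-/- IP in all 3 controls, but control 1 did not reach a −log10 p of 3 at either (1.74 at each), nor did control 3 at the Rae1 site (2.88). Of 21 sites of this list called in all 3 controls, 18 (85.7%) lay above 0 over the Zmat3-/- IP in every control. The share was 60.8% over the 23070 such sites of all protein-coding genes. This list too was chosen with earlier results known, and the difference was not tested.

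The reproducible regions closest to the Rcc1 site were found by the Euclidean distance over its 6 log2 folds, among 193 regions of other genes with a value in all 6 lists. They lay in Gnpat (distance 1.44), an enzyme of ether lipid synthesis, Cactin (1.52) and Pogz (1.96). Gnpat had 5.96, 6.18 and 6.11 over the Zmat3-/- IP and 5.67, 5.90 and 5.12 over input. For the leading Ipo9 site, compared with 194 regions, the nearest were Serhl (1.27), Zmynd11 (1.63) and the histone variant gene Macroh2a1 (1.74). Serhl had 4.18, 4.94 and 4.17 over the Zmat3-/- IP and 3.90, 3.07 and 2.18 over input. Every region compared had to pass the threshold over input in at least 2 controls, which the Ipo9 site did not.

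The values nearest to the threshold, among member peaks with a −log10 p of at least 3, were close to it on both sides. Over input, Rangap1 in control 2 had 3.02 just inside it, and Ipo9 in control 2 had 2.72 just outside. Over the Zmat3-/- IP, Ipo9 in control 1 had 3.10 just inside, and Rangap1 in control 3 had 3.00 at −log10 p 3.79, which fell short of 3 before rounding.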

How the data were processed

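The authors deposited 7 peak lists, 4 of an IP against input and 3 of a control IP against the knockout IP. Positions are on mm10, per the submitters' processing notes, and are printed 1-based. The lists have no header, so the units were read from the values. The deposited −log10 p had an upper limit of 400 and read 0 at every negative log2 fold. The log2 fold was deposited by the authors per peak. For the aligner and peak caller, no name is given in the sources used here. Per the labels, RNA came from the 35 to 110 kDa part of a gel. No read counts were used, so the precision of single values rests on the spread of 3 controls.

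Computed here in Python 3.11.15 with pandas 2.3.3 were gene assignment (RefSeq spans, strand from the promoter table, or from the called peaks for Cse1l), enrichment calls, regions (overlap of at least 1 nt) and sites. Region calling was checked on simulated data, with planted values at the positions of control 1, used for every control, and no other signal. This checks the code alone and not how shifted or noisy peaks behave. The 10 genes, the gene lists and the thresholds were chosen with earlier results of these data known. Genes named were the 10 members, up to 8 transport or spindle genes with a qualifying peak (Xpo6, Xpot, Tnpo2, Tpx2 and Rae1), and the 3 regions nearest to Rcc1 and to Ipo9. Whether replicates came from separate animals is not given in the labels, which name 3 lines. Alternatives were other thresholds, overlaps, comparators and gene assignments, other site values, and leaving out each control.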

Additional observations from a re-analysis of the deposited data

Results flagged for a closer look

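Of the 80 sites of the 10 genes called in all 4 IPs, 11 had the knockout on the other side of input from all 3 controls (13.8%, against 14.3% of such sites in all protein-coding genes). This is near the background and is no result about these genes. The difference was not tested at any of them, since the knockout had 1 library, and no peak at them was enriched over input.

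In 6 sites the controls lay above input and the knockout below. The lowest knockout value was −1.35 in Tnpo1 at 98926143 to 98926326, where the controls had 1.98, 0.15 and 0.18. This site also lies in the span of Gm52051, so its reads cannot be assigned to 1 gene by position alone. The others were Kpnb1 at 97169895 to 97170034 (knockout −0.94; controls 0.31, 0.77 and 0.22), Ranbp2 at 58492626 to 58492690 (−0.55; 1.64, 0.86 and 2.18) and Ranbp2 at 58478365 to 58478446 (−0.13). At Ranbp2 58484465 to 58484627 the knockout was at −0.09 and at Tnpo1 98867265 to 98867401 at −0.03.

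In 5 sites the order was turned. The knockout had 0.97 in Xpo1 at 23280372 to 23280446, where the controls had −0.69, −0.57 and −0.73, and where all 3 also lay below the Zmat3-/- IP (−1.14, −0.58 and −0.88). It had 0.97 in Kpnb1 at 97163352 to 97163518, 0.82 in Ipo9 at 135404224 to 135404323, 0.31 in Kpnb1 at 97184930 to 97185111 and 0.03 in Kpnb1 at 97177242 to 97177357.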

How the results depend on the processing

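No paired analysis was possible because the knockout has 1 library and the inputs enter only through the deposited ratios. The number of the 10 genes with a reproducible region was 1 (Rcc1) under every alternative run except enrichment over the Zmat3-/- IP alone, which gave 5. The single other transport gene, Xpo6, was found under every alternative run. Enriched member peaks over input numbered 12 in all controls, 5 at a log2 fold of 4 and 7 at a −log10 p of 5, and 3 to 11 when 1 control was left out. Over the Zmat3-/- IP they numbered 19, 12 at a log2 fold of 4, and 8 to 15 with 1 control left out. Leaving out peaks in the span of another gene, an alternative chosen after seeing the data, left 12 and 19. Relative to the other called peaks of the gene, the Rcc1 site had 2.47 over the Zmat3-/- IP and 2.47 over input (2 controls), and the Ipo9 site 3.16 over the Zmat3-/- IP. Relative to the median of all called peaks, these were 5.27 for Rcc1 and 3.34 for Ipo9 over the Zmat3-/- IP and 1.95 for Ipo9 over input. Leaving out 1 control gave 6.14 to 6.42 and 4.51 to 5.64 for Rcc1 over the Zmat3-/- IP and input, and 4.04 to 4.83 and 2.41 to 2.92 for Ipo9.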
